A study of Mus musculus with 8 samples.

Results

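CREM and the cyclic AMP pathway that drives it were followed here by the array probe sets annotated to 8 genes: Crem, Creb1, Tbpl1, Camk4, Prkaca, Prkacb, Prkar1a and Prkar2a. All 8 genes were on the array, among 8251 genes named in its annotation, and 11 of the 12422 probe sets reported them, 3 for Creb1, 2 for Crem and 1 for each of the others. On this kind of array several short oligonucleotides form a probe set, which yields a single intensity. The samples were total RNA from testis of house mice, in 4 groups named by the word that follows Mus musculus in the labels: castaneus, domesticus, musculus and ssp. Each group had 2 arrays, which the labels call technical replicates. The labels do not explain ssp, and they give no strain, age, treatment or count of animals for any group. The p-values below therefore measure only the spread between technical replicate arrays, and they compare RNA samples, not mouse populations. The series asks which testis transcripts differ among these mice.

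As background, cyclic AMP made by adenylyl cyclases binds the regulatory subunits of protein kinase A (PKA), which then release the catalytic subunits. The catalytic subunits phosphorylate transcription factors of the CREB family, which bind a palindrome called the cyclic AMP response element (CRE). In the testis the family member CREM is produced in large amounts in round spermatids, the haploid cells that follow meiosis, where activator isoforms of CREM turn on genes for packing DNA and building the sperm tail. Mice without CREM stop spermatogenesis at that stage, as do mice without TBPL1, a relative of the TATA-binding protein that is abundant in spermatids. Since whole testis RNA was measured, fewer cells of a type and less RNA per cell cannot be told apart in any value given here. Whether the oligonucleotides match the sequences of all groups equally well was not tested either, so a difference in intensity need not be a difference in RNA.

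The CRE itself is shown because it is the sequence that CREM and CREB1 read. RefSeq promoter windows of build GRCm38.p6 ran from 250 bases before to 50 bases after an annotated start. They were searched for 6 of the 8 genes, in 14 windows. No window of Crem or Camk4 was searched, so whether these genes carry a CRE near their starts was not tested. The full palindrome TGACGTCA, which reads the same on both strands, was found in 1 of the 6 genes, Prkar1a, 49 bases upstream of an annotated start, in 2 overlapping windows. It occurs in 1.79% of all 32851 windows. The shorter core TGACG, or CGTCA on the other strand, which the full palindrome also contains, was found in Prkaca, Prkacb, Prkar1a and Prkar2a. The core occurs in 20.8% of all windows. Counted by window, as these shares are, the core was in 6 of the 14 windows and the full palindrome in 2, and some windows of a gene overlap. No match of either was found in the Creb1 and Tbpl1 windows, which says only that these letters are not there. The stretches below are 30 bases long and run 5′ to 3′ on the strand of the gene, with the motif in capitals.
Prkar1a, full CRE, chr11:109650889-109650918, plus strand: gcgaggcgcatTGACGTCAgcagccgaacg
Prkar1a, core, chr11:109650749-109650778, plus strand: ggttctagctagaTGACGacgggctaaggg
Prkar1a, core, chr11:109649199-109649228, plus strand: gtttgcttttattCGTCAgtgttaatacag
Prkaca, core 120 bases upstream, chr8:83972845-83972874, plus strand: agtctgcaactcgCGTCActcatccaggag
Prkaca, core 6 bases upstream, chr8:83972959-83972988, plus strand: tgggctgcgggggCGTCAcggacagaggac
Prkacb, core 102 bases upstream, chr3:146813032-146813061, minus strand: gggggcttgaccgCGTCActtccggcgcgc
Prkar2a, core 4 bases upstream, chr9:108692126-108692155, plus strand: ccgcggccgcgtgCGTCAcaacccgggcgc

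None of the probe sets of these 8 genes passed the test for a difference among the 4 groups. Testing required an intensity at or above the 40th percentile of the array, 94.7 to 118.9 units, on at least 2 of the 8 arrays. This held for 9 of the 11 probe sets, those of 7 genes, and left out Camk4 and 1 Creb1 probe set. Of the 9, limma's F test called 0 at an adjusted p under 0.05 with group means at least 2-fold apart, and 2, both of Creb1, had an unadjusted p under 0.05. Over all 8874 tested probe sets, 156 were called, or 1.76%, and 1415, or 15.9%, had an unadjusted p under 0.05. The median span between the highest and lowest group mean was 0.57 on the log2 scale over the 9 probe sets and 0.81 over all tested probe sets.

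**Figure D1:**
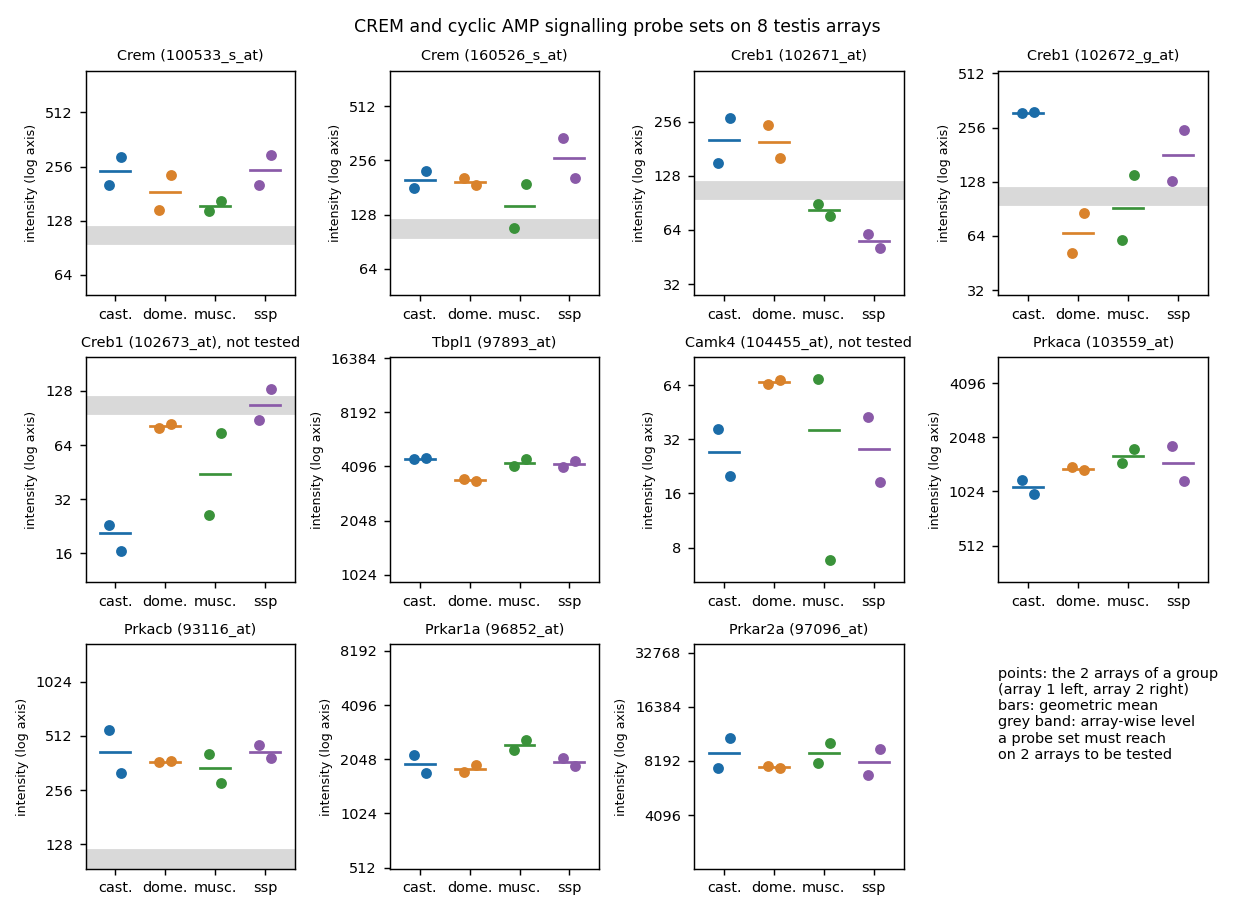
Intensity (log axis, 1 panel per probe set) on each of the 8 arrays for the 11 probe sets; points are the 2 arrays of a group, bars the geometric mean, and the grey band the range over arrays of the level that had to be reached on 2 arrays for a test. Tbpl1, Prkar1a and Prkar2a stay within narrow ranges, while the 3 Creb1 panels each rank the groups differently and all Camk4 points lie below 70 units.

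Crem itself was read by 2 probe sets, both with the suffix _s, which in the manufacturer's naming marks probes shared by several transcripts. The annotation does not say which CREM isoforms they read. Their group means, 143.3 to 264.2 units, lay near the array medians of 151.2 to 182.55. Whether they read the form abundant in spermatids was not tested. Probe set 100533_s_at gave 203.4 and 290.6 in castaneus, 147.5 and 231.3 in domesticus, 145.4 and 165.5 in musculus and 202.7 and 297.5 in ssp. Both musculus arrays read below every castaneus and ssp array, and domesticus overlapped each of the other groups. The ssp mean of 245.6 over the musculus mean of 155.1 made a 1.58-fold span (limma F test, adjusted p = 0.614), with an SE of 0.36 on the log2 scale for a difference between groups.

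Probe set 160526_s_at gave 180.2 and 222.9 in castaneus, 203.9 and 186.2 in domesticus, 108.3 and 189.7 in musculus and 341.6 and 204.4 in ssp. Here too ssp was highest, at 264.2, and musculus lowest, at 143.3, a 1.84-fold span (limma, adjusted p = 0.595). The 108.3 of musculus replicate 1 lay below the level for testing on that array, 118.9. The ssp arrays differed 1.67-fold from each other and the musculus arrays 1.75-fold, nearly as much as the groups did. Both probe sets put the group means in the same order, ssp, castaneus, domesticus and musculus, with different gaps. Castaneus lay close to ssp in the first (243.1) and close to domesticus in the second (200.4 in castaneus, 194.8 in domesticus). The log2 difference of musculus minus ssp was -0.66 (95% interval -1.53 to 0.20) by the first and -0.88 (-1.82 to 0.06) by the second. With 1 array left out, ssp minus musculus ran from 0.39 without ssp replicate 2 to 0.94 without ssp replicate 1 by the first. By the second it was 0.48 without musculus replicate 1 and 0.51 without ssp replicate 1, and at most 1.29, without musculus replicate 2.

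Creb1 encodes the ubiquitous CREB protein that binds the same element, and its 3 probe sets disagreed about the order of the groups although all 3 are annotated to the same sequence record. Probe set 102671_at gave 151.3 and 268.1 in castaneus, 243.7 and 160.6 in domesticus, 89.0 and 76.7 in musculus and 61.0 and 51.0 in ssp. Every castaneus and domesticus array read above every musculus and ssp array, and both musculus and both ssp arrays lay below the level used for testing. The castaneus mean of 201.4 was 3.61-fold the ssp mean of 55.8 (log2 difference 1.85, SE 0.37, adjusted p = 0.137 for the pair and 0.11 for the F test by limma).

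By probe set 102672_g_at, whose suffix marks probes shared with a related probe set or gene group, the arrays gave 309.8 and 310.8 in castaneus, 51.3 and 86.2 in domesticus, 60.5 and 139.8 in musculus and 129.9 and 248.2 in ssp. Castaneus was again highest, with both arrays above the other 6, but domesticus was lowest and ssp second. The castaneus mean of 310.3 was 4.67-fold the domesticus mean of 66.5 (log2 difference 2.22, SE 0.53, limma adjusted p = 0.165 for the pair and 0.207 for the F test). The third, 102673_at, ran the other way for castaneus. It read 23.0 and 16.6 there, against 80.0 and 83.4 in domesticus, 26.3 and 75.1 in musculus and 87.6 and 131.3 in ssp, and it reached the level for testing on 1 array. Without the filter on dim probe sets it did not pass either (adjusted p = 0.255). So castaneus was highest by 2 Creb1 probe sets and lowest by the other. By 102671_at it was level with domesticus (means 201.4 and 197.8), which was lowest by 102672_g_at. No direction for the gene can be read from these arrays.

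Tbpl1 was the most evenly measured of the 8 genes. Its probe set 97893_at gave 4490.6 and 4547.4 in castaneus, 3469.4 and 3391.8 in domesticus, 4134.7 and 4475.0 in musculus and 4069.3 and 4407.8 in ssp. Replicate arrays lay close together in every group, and both domesticus arrays lay below the other 6, as they did for 5.52% of all tested probe sets. The castaneus arrays lay just above the rest. The castaneus mean of 4519 was 1.32-fold the domesticus mean of 3430 (log2 difference 0.40, SE 0.22, adjusted p = 0.601 for the pair by limma). The moderated SD behind that SE, 0.22, was larger than the probe set's own SD between replicates, 0.06, because limma draws each SD towards that of all probe sets.

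Camk4 encodes the calcium and calmodulin dependent kinase IV, which phosphorylates CREM and CREB, and the same locus makes calspermin in spermatids. Its probe set 104455_at gave 36.7 and 20 in castaneus, 65.1 and 67.9 in domesticus, 69.2 and 6.8 in musculus and 42.4 and 18.5 in ssp. No array reached the level for testing and 2 were below the intensity floor of 18.7, so the arrays gave no usable comparison of Camk4. Fitted without the filter, its F test had an adjusted p of 0.738 (limma).

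The catalytic subunits of PKA did not differ past the threshold. Prkaca encodes the alpha subunit, which sperm carry in a testis-specific form. It gave 1187.5 and 993.2 in castaneus, 1400.6 and 1341.0 in domesticus, 1479.3 and 1764.0 in musculus and 1843.6 and 1177.9 in ssp. The ssp arrays alone covered most of the range seen over all groups. The musculus mean of 1615 was 1.49-fold the castaneus mean of 1086 (limma, adjusted p = 0.493 for the pair, SE 0.30 log2). Prkacb, the beta subunit, gave 549.4 and 318.1 in castaneus, 364.8 and 370.5 in domesticus, 408.9 and 281.5 in musculus and 453.9 and 383.8 in ssp. Both domesticus arrays read below both ssp arrays, every other pair of groups overlapped, and the group means spanned 1.23-fold (adjusted p = 0.91 for the F test).

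The regulatory subunits were as even. Prkar1a, the type I alpha subunit, gave 2159.1 and 1709.2 in castaneus, 1737.8 and 1894.1 in domesticus, 2299.6 and 2629.5 in musculus and 2080.3 and 1887.0 in ssp. Both musculus arrays lay above the other 6, which held for 6.37% of all tested probe sets. The musculus mean of 2459 was 1.36-fold the domesticus mean of 1814 (log2 span 0.44, SE 0.25, adjusted p = 0.589 for the pair by limma). The full CRE in its promoter window is shown above. Prkar2a, the type II alpha subunit that anchoring proteins hold along the sperm tail, gave 7503.3 and 10990.9 in castaneus, 7696.0 and 7462.6 in domesticus, 7932.7 and 10245.3 in musculus and 6824.2 and 9488.2 in ssp. Only the domesticus arrays were close to each other, and the group means spanned 1.2-fold (limma F test, adjusted p = 0.915).

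Between pairs of groups, limma called none of the 9 tested probe sets in any of the 6 pairs, which share arrays. The background was 0.676% for castaneus with domesticus, 0.947% for castaneus with musculus, 0.349% for castaneus with ssp, 0.744% for domesticus with musculus, 0.687% for domesticus with ssp and 0.98% for musculus with ssp. At an unadjusted p under 0.05 there were 7 differences, all of Creb1, and the smallest adjusted p was 0.119, for 102671_at between domesticus and ssp. In 4 of the 9 probe sets some group had both arrays above or both below the other 6, and 39.8% of all tested probe sets did. Castaneus lay above for 2 of the 9 (5.74% of all tested) and below for 0 (5.44%), domesticus above for 0 (6.13%) and below for 1 (5.52%). Musculus lay above for 1 (6.37%) and below for 0 (6.68%), and ssp above for 0 (6.42%) and below for 1 (5.17%). The precision behind these results differed by gene. The 95% intervals of the 6 differences, which cover the spread between technical arrays and are not adjusted for the number of pairs, reached at most 1.92-fold for Tbpl1, 2.04-fold for Prkar2a and 2.06-fold for Prkar1a. They reached 2.23-fold for Prkacb, 2.47-fold for Prkaca and 2.89-fold and 3.54-fold for the Crem probe sets. For Creb1 they reached 6.74-fold and 11.3-fold, so the arrays bounded Creb1 least.

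**Figure D2:**
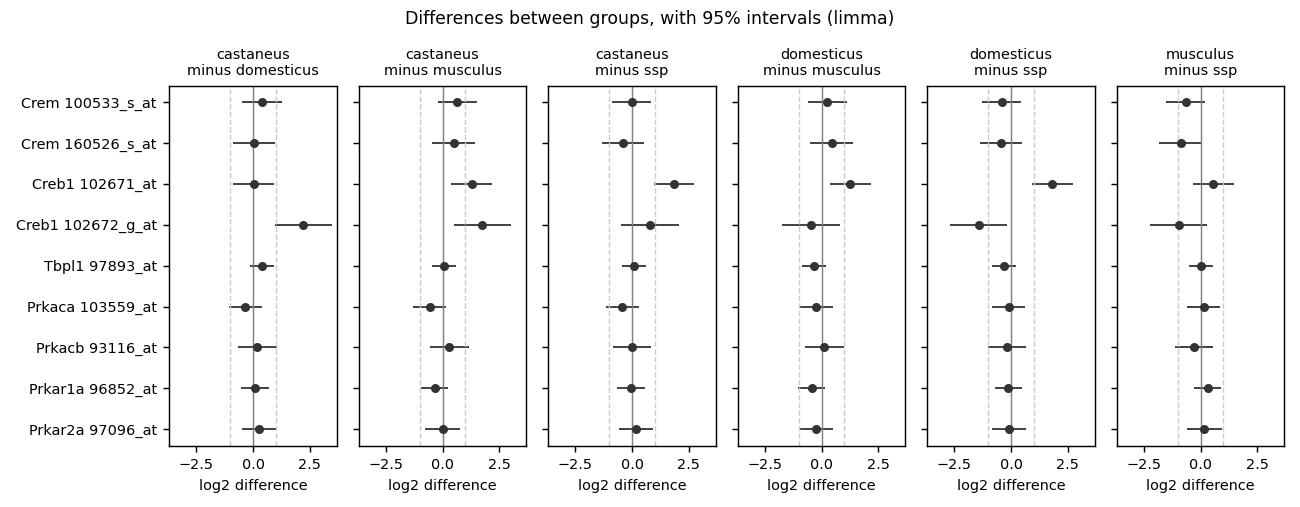
Log2 difference between the first and second group of each of the 6 pairs for the 9 tested probe sets, with 95% intervals from limma; dashed lines mark 2-fold. The intervals of the 7 probe sets other than Creb1 all cover 0, and those of Creb1 that do not cover 0 come from differences whose adjusted p was 0.119 or more.

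Genes described elsewhere as CREM targets, or as lowered in testis of mice without CREM, give the other end of the pathway. All 10 on the list were on the array and tested: Prm1, Prm2, Tnp1 and Tnp2 of the sperm nucleus, the spermatid linker histone gene Hils1, Odf1 and Smcp of the sperm tail, Acr of the acrosome, the lactate dehydrogenase gene Ldhc and the angiotensin-converting enzyme gene Ace. The F test called 0 of the 10, and 0 had an unadjusted p under 0.05. Their median span was 0.41 on the log2 scale, against 0.81 over all tested probe sets, and 9 of the 10 spanned less than 2-fold. Most of the 10 read far above the array medians of 151.2 to 182.55 units, Tnp2 at 49943 to 84310. Spans were not compared at matched brightness, so the smaller median need not set CREM targets apart. Ssp was the highest group for 6 of the 10, castaneus for 2, and domesticus and musculus for 1 each. Musculus was the lowest for 5, domesticus for 4, castaneus for 1 and ssp for 0. No share over all tested probe sets is given for these counts, so they are description only.

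Tnp2, a transition protein that replaces histones, had 69070 and 79849 in castaneus, 64507 and 56240 in domesticus, 69588 and 49943 in musculus and 78064 and 84310 in ssp. Among the 10, Ace had the widest span, 2.79-fold for musculus over domesticus (adjusted p = 0.508), and it rested on 1 array: musculus gave 3540.0 and 941.9, and the other groups 547.7 to 1029.8. The next widest was Prm2, at 1.72-fold, with 428.5 on 1 ssp array and 114.2 to 223.8 on the other 7. Prm2 encodes a sperm protamine. A second Prm2 probe set lay below the floor on all 8 arrays, at 4.4 to 14.1 units. Prm1, the other protamine gene listed, read 43402 to 83529. Whether either Prm2 probe set reads Prm2 RNA was not tested, so the counts over the 10 targets include an uncertain member. In RefSeq promoter windows searched for 8 of the 10 targets, all but Odf1 and Acr, the full CRE was found in 0 and the core in 1, Ldhc.

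In a separate list of spermatid markers, 0 of 7 passed the F test and 0 had an unadjusted p under 0.05. Ssp was the highest group for 4 of the 7, and castaneus, domesticus and musculus for 1 each, again with no share over all tested probe sets given. The summed intensity of 7 of 7 markers (Acrv1, Tssk1, Tssk2, Gapdhs, Odf2, Zpbp and Spam1) was 95785 to 112540 in castaneus, 86959 to 88839 in domesticus, 85296 to 88797 in musculus and 108650 to 120810 in ssp. Without Gapdhs, the brightest of them, a choice made after seeing the data, the sums of the other 6 overlapped: 44353 to 49785 in castaneus, 39340 to 46829 in domesticus, 41494 to 49065 in musculus and 44148 to 49322 in ssp. That of the 10 CREM targets was 273800 to 336000 in castaneus, 252520 to 253750 in domesticus, 227980 to 281190 in musculus and 290580 to 346810 in ssp. Both Crem probe sets had their highest mean in ssp and their lowest in musculus, and neither passed the F test. The part of spermatid content in the Crem and target values was not tested.

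**Figure D3:**
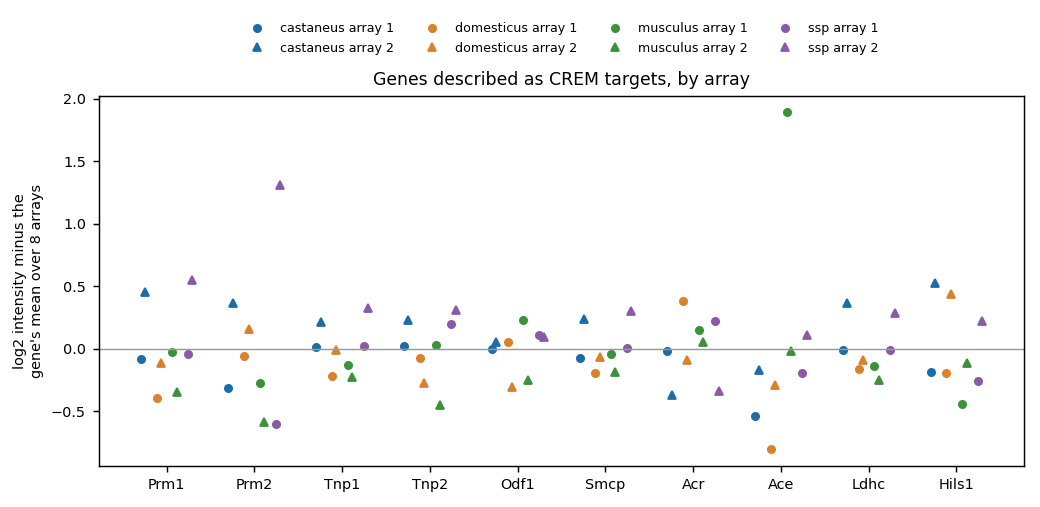
Log2 intensity minus the gene's mean over the 8 arrays for the 10 genes described as CREM targets; circles are the first array and triangles the second array of each group. Of the 80 points all but 3 lie within 0.6 of 0, and the 2 farthest are 1 musculus array for Ace and 1 ssp array for Prm2.

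Enzymes that make cyclic AMP and their G proteins were tested for 10 of the 13 genes on the array, with 0 called and 2 at an unadjusted p under 0.05 by limma. The widest span was that of Gnai3, which encodes an inhibitory G protein subunit. It gave 1438.5 and 589.4 in castaneus, 1396.7 and 1242.3 in domesticus, 496.2 and 341.9 in musculus and 2280.6 and 2370.6 in ssp. Both ssp arrays lay above all others, as for 6.42% of all tested probe sets, and both musculus arrays below, as for 6.68%. The ssp mean was 5.65-fold the musculus mean (adjusted p = 0.134 for the F test). Adcy6, an adenylyl cyclase, spanned 3.30-fold, with musculus at 261.1 and castaneus at 79.1, and 1 castaneus array at 40.9 (adjusted p = 0.4).

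Of the phosphodiesterases, which break cyclic AMP down, all 6 on the array were tested and 0 were called, with 1 at an unadjusted p under 0.05. Pde1b spanned 3.96-fold, with 174.9 and 264.8 in ssp against 16.4 and 158.2 in castaneus, where the 2 arrays themselves lay far apart. Pde1c spanned 2.78-fold for ssp over musculus, at 137.5 and 49.4 (adjusted p = 0.291). Both are calmodulin-stimulated enzymes.

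Other PKA subunits, PKA inhibitors and anchoring proteins were tested for 9 of 12 genes, with 0 called and 3 at an unadjusted p under 0.05. Pkib, an inhibitor of the catalytic subunit, gave 422.6 and 249.9 in ssp and 258.6 and 270.5 in domesticus, against 118.0 and 54.5 in castaneus and 45.9 and 107.9 in musculus. All 4 arrays of ssp and domesticus read above all 4 of the others, and the ssp mean was 4.62-fold the musculus mean (limma F test, adjusted p = 0.175). Akap12, which anchors PKA at membranes, gave 12013.6 and 7864.8 in castaneus, 6012.3 and 6849.3 in domesticus, 10289.7 and 9157.2 in musculus and 17199.3 and 15997.8 in ssp. The ssp mean was 2.58-fold the domesticus mean (adjusted p = 0.196).

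Partners of CREM and CREB were tested for 5 genes. A list of TBP and subunits of the transcription factors TFIIA and TFIID was tested for 4. In both lists 0 were called and 0 had an unadjusted p under 0.05 by limma. Spans were under 2-fold for all 9. Among the first, Atf3, a stress-induced relative of CREB, spanned 1.89-fold and the calmodulin gene Calm2 1.76-fold. Among the second, Taf10, a TFIID subunit, spanned 1.97-fold, with castaneus at 3243 and ssp at 1645. Tbp, the TATA-binding protein itself, spanned 1.87-fold, with 1454.8 and 1487.9 in domesticus against 662.7 and 932.2 in ssp (adjusted p = 0.318). Both domesticus arrays read above the other 6 for Tbp, as for 6.13% of all tested probe sets. They read below the other 6 for Tbpl1, as for 5.52%. The median spans were 1.09 for cyclic AMP synthesis, 0.97 for breakdown and 0.68 for PKA partners on the log2 scale. They were 0.55 for CREM partners and 0.64 for the list of TBP, TFIIA and TFIID.

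**Figure D4:**
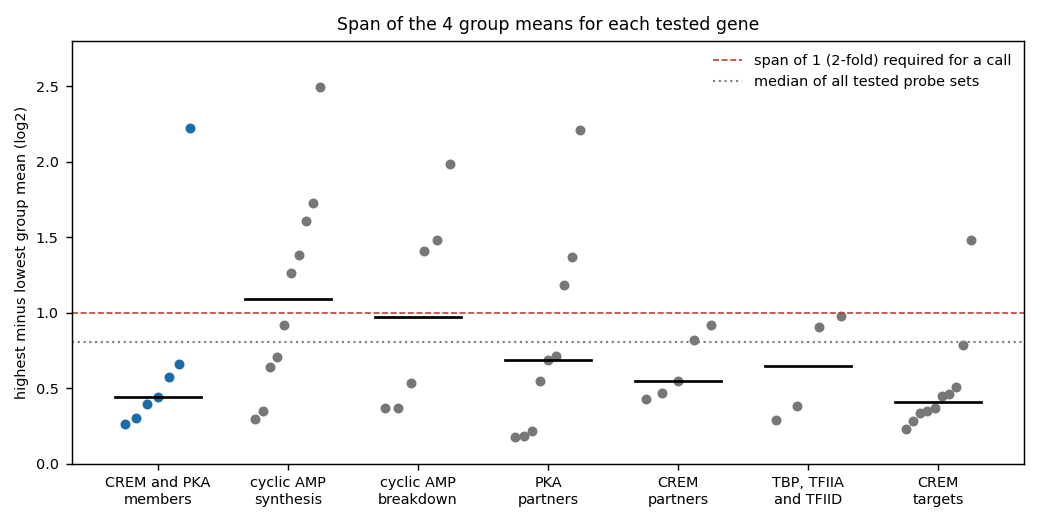
Highest minus lowest group mean (log2) for each tested gene, 1 point per gene by its brightest tested probe set, with the median of each list as a bar. Only Creb1 among the 7 tested members lies above the dashed 2-fold line, and no point in the plot passed the F test.

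The genes whose pattern over the 8 arrays was most like that of the brighter Crem probe set, 100533_s_at, were Gabarapl2, Tamm41, Kdm3a, Lrrc23 and Cyct, out of 7944 tested probe sets with 1 gene symbol. Their Pearson correlations were 0.978, 0.97, 0.958, 0.955 and 0.953, and Spearman's rho ran from 0.905 to 0.976. These are descriptions over 8 arrays of 4 RNA samples, chosen as the highest of many. Gabarapl2 encodes an autophagy protein, Tamm41 an enzyme of mitochondrial lipid synthesis, Kdm3a a histone H3 demethylase that spermatids need, Lrrc23 a leucine-rich repeat protein and Cyct the cytochrome c of testis. Crem by this probe set, Gabarapl2, Tamm41, Kdm3a and Cyct read higher on the array numbered 2 in each of the 4 groups, as did 11.3% of all tested probe sets. The other Crem probe set, with a correlation of 0.401, ranked 1777 among the same probe sets, and it read higher on the array numbered 2 in 2 groups.

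For the labelled tissue, markers were counted that reached the level for testing on at least 2 arrays. They were all 7 measured of Sertoli cells, all 7 of Leydig cells and 5 of 6 of spermatocytes. They also included 3 of 3 of epididymis, 2 of 2 of blood and 4 of 5 of skeletal muscle. Of all 12422 probe sets, 8874 reached that level, and each marker stood by its brightest probe set. These counts therefore say little about the tissue. The summed level was 85296 to 120810 units for spermatid markers and 91.1 to 396.2 for epididymis markers. Of the 7 Leydig cell markers 2 passed the F test. The 7 summed to 13684 to 14464 in musculus and 3066.9 to 5575 in the other groups. Most of that sum came from Cyp17a1, at 8656.3 and 9709 in musculus. Musculus was highest for 5 of the 7, domesticus for 1 (Hsd3b6) and ssp for 1 (Insl3). The 2 blood cell markers summed to 13970 to 17682 in musculus and 1558.1 to 5393.8 elsewhere. Most of this came from Hba-a1, at 13327.9 and 16970.5 in musculus. The 8 macrophage markers summed to 3838.6 to 4621.8 in musculus and 1914.4 to 3005 in the other groups, and musculus was highest for 7 of the 7 that were tested. Musculus was also the group with the highest Prkar1a and Prkaca means, and the part of these cell types in those values was not tested. The 6 measured spermatocyte markers summed to 12485 to 13151 in domesticus and 16889 to 19189 in the other groups. Hspa2 read 4543.1 and 4304.6 in domesticus and 7772.4 to 9686.9 elsewhere, and domesticus was lowest for 1 of the 5 tested. Tbpl1 too was lowest in domesticus, and the part of spermatocytes in its values was not tested.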

How the data were processed

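The authors deposited linear intensities, 1 per probe set and array, from Affymetrix arrays hybridised with testis RNA per the labels. Their trimmed means lay between 495.6 and 496.7 on all 8 arrays, so the arrays had been brought to a common mean. The method that summarised probes is not stated in the labels or file headers. All columns were matched to samples by name. Intensities below the 10th percentile, 18.7, were set to that floor and log2 was taken. Symbols came from the platform annotation, updated to a RefSeq table of GRCm38.p6 (10817 of 10833 probe sets with 1 symbol matched). Means are geometric.

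A linear model with 1 mean per group was fitted to all 8874 tested probe sets with limma 3.58.1 in R 4.3.3, and p-values were adjusted by Benjamini-Hochberg over all of them. A call needed an adjusted p under 0.05 and at least 2-fold between group means. List genes stand by their brightest tested probe set. In each list without a call, the 2 genes of widest span are named. The fit was tested on simulated data. The members and lists were chosen with earlier results of these data known. The number of arrays limits the precision. Scaling, filter, floor, variance model, replicate block and left-out arrays were varied.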

Additional observations from a re-analysis of the deposited data

How the results depend on the processing

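The count of member probe sets differing among the groups, 0, was 0 under each of the 16 other settings that were run, and so was the count between pairs, also when a pair was fitted on its own 4 arrays. The smallest adjusted p of a member's F test over these settings was 0.0787, with quantile normalisation. With the replicate number as a block the count was 0 and the smallest adjusted p 0.115, and 42 of all tested probe sets were called, against 156 without the block. Deviations of same-numbered arrays correlated between 0.026 and 0.171 over the 6 pairs of groups, all above 0, and the main fit did not pair the arrays by number. For Crem by 100533_s_at, the limma F test gave an adjusted p of 0.309 with the block and 0.614 without. The contrast of ssp with musculus gave 0.264 with it and 0.506 without. A trended and robust variance model called 1 gene of cyclic AMP synthesis, Gnai3 (adjusted p = 0.0145), and 2 PKA partners, Akap12 (0.0229) and Prkar1b (0.0436). The cause was not tested. No other list of pathway genes gave a call under any setting, and counting each tested probe set in place of the brightest gave none either. The difference between a member's highest and lowest group kept its direction in 140 of 142 recomputed values. With 1 array left out, that of Crem ran from 0.39 to 0.94 by 100533_s_at and from 0.48 to 1.29 by 160526_s_at, that of Prkacb ran from -0.09 to 0.70 and that of Prkar2a from -0.01 to 0.54 on the log2 scale. The lowest values, both reversed, were -0.093 for Prkacb without castaneus replicate 1 and -0.014 for Prkar2a without castaneus replicate 2. A lone array left in a group was assumed to vary like the other groups. Over all tested probe sets, the 156 calls became 31 without the filter, 309 with the filter at the 60th percentile, 383 with the trended and robust variance and 7 to 43 with 1 array left out.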

Other observations

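Prkar1b, the type I beta regulatory subunit of PKA, was singled out after its values were seen. It gave 1944.7 and 1495.0 in musculus, against 1066.9 and 1023.7 in castaneus, 885.1 and 818.9 in domesticus and 681.3 and 831.3 in ssp. Both musculus arrays lay above the other 6, as for Prkar1a and for 6.37% of all tested probe sets. The musculus mean was 2.27-fold the ssp mean (limma F test, adjusted p = 0.184). The summed Leydig cell markers (13684 to 14464 in musculus, 3066.9 to 5575 in the other groups, mostly from Cyp17a1) were highest in the same group. So were the summed blood and macrophage markers. The part of these cell types in the Prkar1b values was not tested.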
